A study of Mus musculus with 12 samples.

Results

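The cytochrome P450 (P450) genes of families 1 to 4 were followed in 12 kidney cortex libraries of mice. Members were all symbols of the deposited count table that start with Cyp, a family number of 1 to 4, a subfamily letter and a gene number, with symbols ending in -ps left out. This gave 82 of 24452 symbols: 3 in family 1, 48 in family 2, 9 in family 3 and 22 in family 4. RefSeq lists Cyp2d13 and Cyp4b1-ps2 as transcribed pseudogenes and Cyp4x1os as a non-coding RNA, and all 3 were kept because the rule does not leave them out. The mice were C57BL/6, labelled adult and male, with 3 libraries in each of 4 groups: GN_captopril, GN_water, Control_captopril and Control_water. Mice of both GN groups had glomerulonephritis (GN), an inflammation of the filtering units of the kidney. It was raised by intraperitoneal horse spleen apoferritin, an immune-complex-forming foreign protein, at 10 mg on 5 days a week for 6 weeks, together with 100 µg of lipopolysaccharide, a bacterial cell wall component, on 3 days a week. Mice of both control groups were injected with saline, and tissue was taken in week 9. The drink was captopril, an inhibitor of angiotensin-converting enzyme, or water. Each library title holds a pair of numbers, which may stand for a pool of 2 mice, but the labels do not say so, and p values measure the spread between libraries, which may be technical.

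P450 enzymes are heme proteins of the endoplasmic reticulum that insert an oxygen atom into their substrate, with electrons passed on by P450 oxidoreductase and cytochrome b5. Families 1 to 4 oxidise drugs and toxicants, steroids, and fatty acids such as arachidonic acid. In the kidney, most of them are found in the proximal tubule, where Cyp4a enzymes make the vasoconstrictor 20-HETE, and Cyp2c and Cyp2j enzymes make epoxides that widen vessels and promote sodium loss. Several mouse P450 genes are known to be driven by androgen, others by PPAR-alpha, a nuclear receptor for fatty acids, or by the aryl hydrocarbon receptor.

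The RefSeq promoter table of build GRCm38.p6 held 66 of the 82 members, each as 300 bases that run from 250 before to 50 after the start of transcription. The sequences of 6 of them, at the start listed first, are shown because they belong to abundant members with large differences between libraries in either direction, and because Cyp2j13 and Cyp2j5 stand in 1 gene cluster and differed very unequally. They are Cyp2j13 (chr4:96077491-96077790, minus strand), Cyp2j5 (chr4:96664070-96664369, minus strand), Cyp2e1 (chr7:140763569-140763868, plus strand), Cyp4b1 (chr4:115647672-115647971, minus strand), Cyp2d9 (chr15:82452127-82452426, plus strand) and Cyp2d26 (chr15:82794196-82794495, minus strand). Each is written 5′ to 3′ along the gene. Capitals mark the TATA box letters TATAAA and the letters TGTTCT, a short site bound by several steroid receptors, each searched on both strands, where the reverse strand reads TTTATA and AGAACA.
Cyp2j13: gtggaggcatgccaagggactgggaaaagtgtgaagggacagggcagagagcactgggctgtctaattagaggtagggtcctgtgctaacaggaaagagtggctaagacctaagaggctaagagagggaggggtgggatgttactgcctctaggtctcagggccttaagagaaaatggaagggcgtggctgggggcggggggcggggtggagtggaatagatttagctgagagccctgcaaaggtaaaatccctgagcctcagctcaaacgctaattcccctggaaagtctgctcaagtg
Cyp2j5: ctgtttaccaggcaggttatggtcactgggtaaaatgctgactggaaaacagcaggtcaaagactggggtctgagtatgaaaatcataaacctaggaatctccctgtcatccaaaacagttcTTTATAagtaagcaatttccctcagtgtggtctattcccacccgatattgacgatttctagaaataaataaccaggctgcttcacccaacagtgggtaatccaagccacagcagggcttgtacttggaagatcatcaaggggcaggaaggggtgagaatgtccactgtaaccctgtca
Cyp2e1: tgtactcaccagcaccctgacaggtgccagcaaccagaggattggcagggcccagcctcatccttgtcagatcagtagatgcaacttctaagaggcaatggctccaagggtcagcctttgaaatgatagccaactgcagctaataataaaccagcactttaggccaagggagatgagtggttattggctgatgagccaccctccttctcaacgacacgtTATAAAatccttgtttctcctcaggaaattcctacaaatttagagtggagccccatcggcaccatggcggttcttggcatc
Cyp4b1: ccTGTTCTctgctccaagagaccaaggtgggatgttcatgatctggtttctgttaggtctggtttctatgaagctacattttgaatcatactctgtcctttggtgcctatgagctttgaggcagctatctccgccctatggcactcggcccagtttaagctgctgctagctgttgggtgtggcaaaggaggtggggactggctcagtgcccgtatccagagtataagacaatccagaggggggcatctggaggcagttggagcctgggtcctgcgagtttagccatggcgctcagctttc
Cyp2d9: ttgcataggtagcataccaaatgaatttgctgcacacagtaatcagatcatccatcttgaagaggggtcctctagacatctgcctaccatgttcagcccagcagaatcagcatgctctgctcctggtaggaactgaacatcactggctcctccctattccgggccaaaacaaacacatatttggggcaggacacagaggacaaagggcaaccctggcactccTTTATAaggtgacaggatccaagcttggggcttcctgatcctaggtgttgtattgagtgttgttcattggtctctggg
Cyp2d26: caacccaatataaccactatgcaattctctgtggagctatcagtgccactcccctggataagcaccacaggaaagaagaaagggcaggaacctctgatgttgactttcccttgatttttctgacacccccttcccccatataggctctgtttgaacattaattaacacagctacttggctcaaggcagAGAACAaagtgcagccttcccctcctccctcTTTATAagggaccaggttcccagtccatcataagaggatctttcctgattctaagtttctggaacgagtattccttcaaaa
TATAAA was present in 13.6% of all 32851 promoters of the table and in 28 of the 66 member promoters (42.4%). Shares over all promoters count every listed start, and a gene can have several. Each member was counted once, at the start listed first, so the shares are not strictly alike. It occurred once each in Cyp2j5, Cyp2e1, Cyp2d9 and Cyp2d26, starting 128, 31, 28 and 31 bases before the start of transcription, and on the reverse strand in all but Cyp2e1. TGTTCT was present in 19.0% of all promoters and in 19 of the 66 (28.8%), and here in Cyp4b1, starting 248 bases before the start, and on the reverse strand in Cyp2d26, starting 62 bases before it. A match describes these letters only, and none of the searched letters stood in the window shown for Cyp2j13, the first of 2 starts listed.

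Libraries held between 14.2 M and 22.8 M counts (M for mega), and levels are given as CPM, counts scaled to a common library size with TMM factors. Sex-linked and renin transcripts did not follow the labels. Y-linked transcripts summed to 124 to 129 CPM in GN_captopril and 121 to 144 CPM in Control_water, against at most 0.101 CPM in GN_water and Control_captopril, which carried Xist at 181 to 212 and 314 to 375 CPM although labelled male. Renin (Ren1) had 438 to 691 CPM in GN_captopril, 20.8 to 30.2 CPM in GN_water, 63.4 to 82.8 CPM in Control_captopril and 1083 to 1794 CPM in Control_water. The interaction of disease and drink, the captopril difference in GN minus that in controls, sets GN_captopril and Control_water against GN_water and Control_captopril. It is therefore the same split as that by sex-linked and renin transcripts, and the interaction and that split cannot be told apart. The interaction divided by 2 is the mean log2 difference between those 2 sides, 6 libraries each, and is given below as the side difference. Adrenal cortex markers summed to 91.9 CPM in GN_captopril replicate 3 and 275 CPM in Control_captopril replicate 3, called adrenal-rich below, to 15.1 CPM in GN_captopril replicate 2 and to at most 4.44 CPM in the other 9 libraries. GN averaged over both drinks and captopril averaged over disease are balanced for the split. The GN average is the mean of 2 comparisons of libraries with like sex-linked transcripts, GN_water against Control_captopril and GN_captopril against Control_water. Captopril averaged over disease is the difference between these 2, divided by 2 and with its sign turned, so a captopril difference and a GN difference of unequal size in them cannot be told apart. If the drink labels of the control libraries were exchanged, the side difference would be the captopril average and the captopril average would be the side difference, while the GN average would stay as it is. Whether labels were exchanged was not tested, and no library was regrouped.

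P450 members took up more of the RNA on 1 side of this split. They held 1.16% to 1.32% of all counts in GN_captopril, 0.459% to 0.490% in GN_water, 0.635% to 0.734% in Control_captopril and 1.16% to 1.30% in Control_water. In bulk tissue, fewer cells of a type and less RNA per cell cannot be told apart. Markers of other kidney cells moved along the same split. Thick limb and distal nephron markers summed to 3498 to 4168 CPM in GN_captopril, 5972 to 7321 CPM in GN_water, 6165 to 7651 CPM in Control_captopril and 4175 to 5175 CPM in Control_water, and for the interaction 4 of 6 were lower. Podocyte markers summed to 279 to 358 CPM in GN_captopril, 448 to 559 CPM in GN_water, 512 to 541 CPM in Control_captopril and 356.5 to 408 CPM in Control_water, with 4 of 4 lower. Endothelial markers summed to 289 to 339 CPM in GN_captopril, 367 to 391 CPM in GN_water, 388.5 to 402 CPM in Control_captopril and 295 to 330.3 CPM in Control_water, with 5 of 6 lower and 1 higher. The sums of these 3 lists did not overlap between the sides. Of 11 proximal tubule markers 4 were higher and 5 lower for the interaction. Of all genes 23.6% were higher and 27.1% lower for the interaction. The part of these markers in the P450 differences between the sides was not tested. Cyp4b1 alone made up 36.3% to 38.9% of member counts in GN_captopril and 35.6% to 39.6% in Control_water, against 7.0% to 8.91% in GN_water and 6.04% to 8.28% in Control_captopril. By mean CPM per kilobase of exon, a level that allows genes to be set side by side, Cyp4b1 (1170), Cyp2j5 (728), Cyp2e1 (467), Cyp4a10 (320) and Cyp2a4 (317) led the family. Below them came Cyp4a14 (212), Cyp2d26 (173), Cyp4a31 (158), Cyp2j11 (134) and Cyp2d9 (59.8), all on the scale of CPM per kilobase. The order differed between groups: Cyp4b1 led in GN_captopril (2120) and Control_water (2200), and Cyp2j5 in GN_water (527) and Control_captopril (632).

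Of the 82 members, 39 had enough counts to be tested, among 14618 genes. The interaction was called, at an adjusted p under 0.05 by edgeR's quasi-likelihood test, for 33 of these 39 (84.6%), 18 higher and 15 lower, where 23.6% of all genes were called higher and 27.1% lower. In 17 of the 39 (43.6%) the 6 libraries of 1 side did not overlap the 6 of the other, 10 higher and 7 lower, beside 20.4% of all genes tested. Cyp2b10, Cyp2c29, Cyp2c50, Cyp3a11 and Cyp4a32 passed the count filter only through the side where they were higher. Their interaction calls, and the place of Cyp2b10 among the 10, were therefore partly fixed by that filter. GN averaged over drinks gave 13 calls (33.3%), 5 higher and 8 lower, beside 16.3% higher and 14.6% lower of all genes, so the share of members called was near the background. Captopril averaged over disease gave 3 calls (7.69%), all higher, beside 3.17% higher and 3.34% lower of all genes. In either direction 6.51% of all genes were called, so the share of members called was near the background. At an unadjusted p under 0.05 there were 8 higher and 5 lower members, and DESeq2 called 3 higher. Both the interaction and the GN average were called in 12 members, out of the 33 and 13 called in each. The share of all genes called in both was not computed. In none of the 3 were Cyp1a1, Cyp2c69, Cyp2f2, Cyp2r1 and Cyp3a13 called. The comparisons of 2 groups that cross the split called 29 members in GN_water against Control_water (51.2% of all genes), 29 in GN_captopril against GN_water (45.1%), 28 in Control_captopril against Control_water (32.4%) and 27 in GN_captopril against Control_captopril (39.8%). These 4 share groups with each other and with the interaction.

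**Figure D1:**
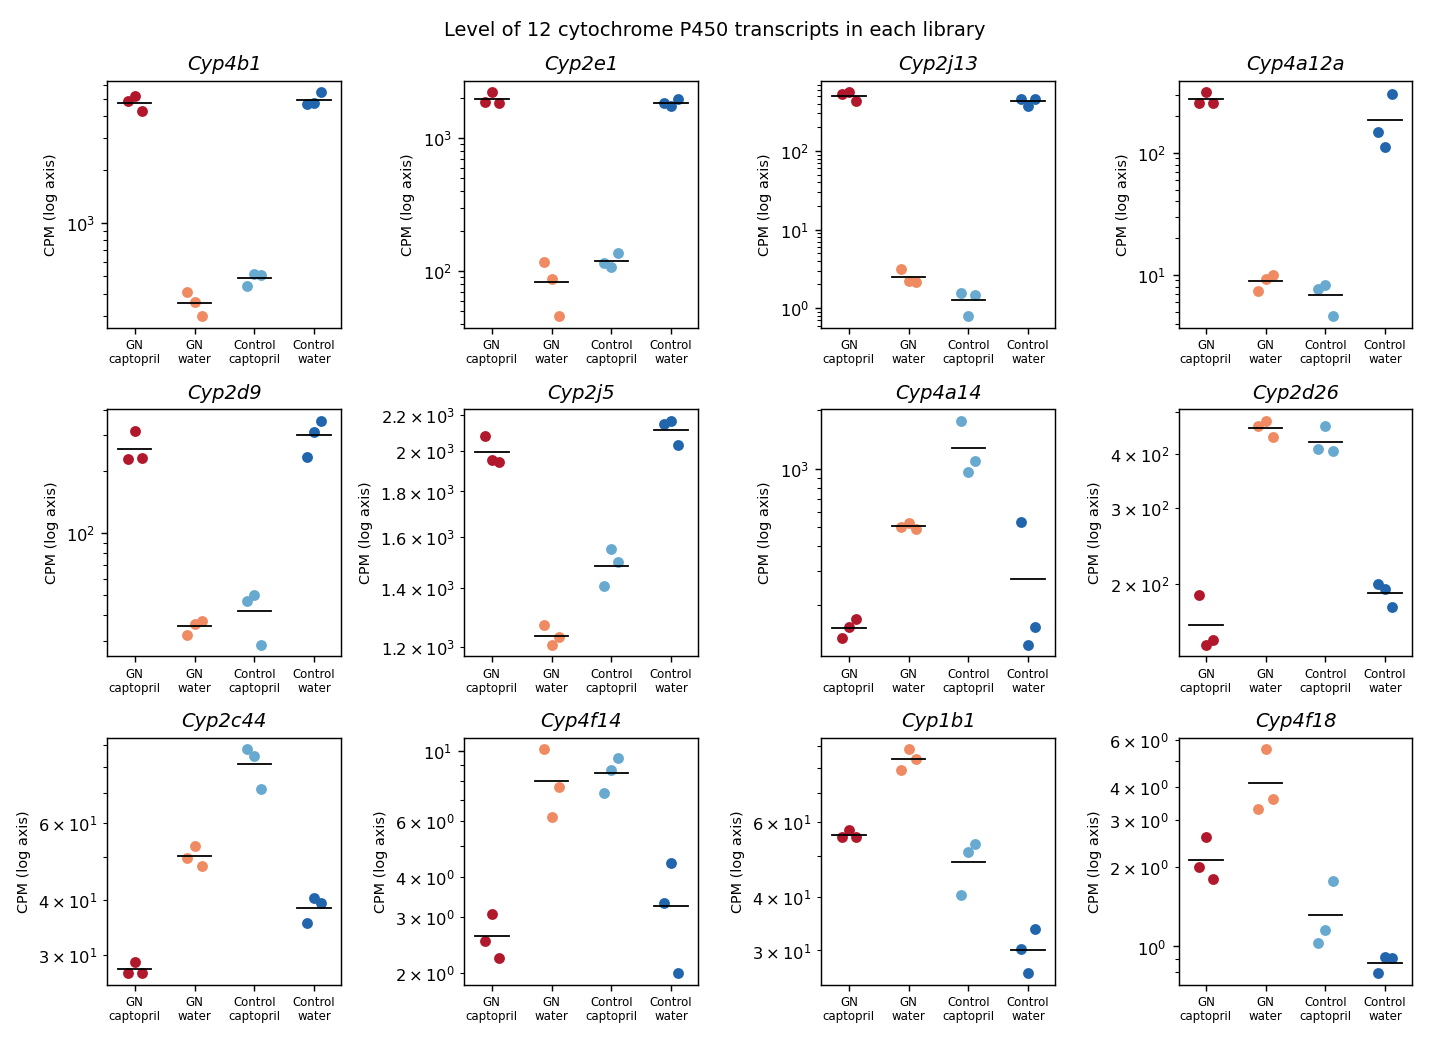
Level of 12 P450 transcripts in CPM on a log axis, with 1 point per library and a bar at the mean of the 3 libraries of a group. Cyp4b1, Cyp2e1, Cyp2j13, Cyp4a12a and Cyp2d9 were high in GN_captopril and Control_water, Cyp2d26 and Cyp4f14 in GN_water and Control_captopril, and Cyp1b1 and Cyp4f18 highest in GN_water.

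Cyp4b1 and Cyp2e1, which both turn toxicants into reactive products and are known to be raised by androgen in the mouse kidney, were the most abundant members with a large side difference. Cyp4b1 had 4868, 5194 and 4285 CPM in GN_captopril, 407, 360.4 and 297 CPM in GN_water, 441, 516 and 508 CPM in Control_captopril, and 4668, 4724 and 5467 CPM in Control_water. All 6 libraries of GN_captopril and Control_water lay at or above 4285 CPM and the other 6 at or below 516 CPM. Its side difference was 3.55 ± 0.0856 (log2, SE), or 11.7-fold (edgeR adjusted p = 2.35e-12 for the interaction). Cyp2e1, the ethanol-inducible P450, had 1881, 2219 and 1834 CPM in GN_captopril, 117, 87.2 and 45.6 CPM in GN_water, 115, 108 and 138 CPM in Control_captopril, and 1828, 1736 and 1987 CPM in Control_water. The sides were again apart, and the lowest value of all was that of 1 GN_water library. Its side difference was 4.26 ± 0.181 (log2, SE), 19.1-fold (edgeR adjusted p = 6.64e-10).

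Among the Cyp2j epoxygenases, which stand in 1 cluster of 7 genes on chromosome 4 (96042660 to 96664171), the side difference was largest for Cyp2j13 and small for its neighbours. Cyp2j13 had 527, 558 and 435 CPM in GN_captopril, 3.12, 2.22 and 2.17 CPM in GN_water, 1.57, 0.783 and 1.47 CPM in Control_captopril, and 452, 369 and 457 CPM in Control_water. It was thus at 369 to 558 CPM on 1 side and at 0.783 to 3.12 CPM on the other. The side difference was 8.02 ± 0.13 (log2, SE), or 260-fold, the largest of the 39 members (edgeR adjusted p = 5.61e-14). Only 0.127% of its 50-base windows occur in another gene. Cyp2j5, the main arachidonic acid epoxygenase of the mouse proximal tubule, had 2083, 1956 and 1942 CPM in GN_captopril, 1270, 1206 and 1230 CPM in GN_water, 1405, 1547 and 1498 CPM in Control_captopril, and 2146, 2165 and 2031 CPM in Control_water. The sides did not overlap, yet the side difference was 0.60 ± 0.0377 (log2, SE), 1.52-fold (edgeR adjusted p = 3.07e-08). Of the other cluster members tested, the side difference was 0.47 ± 0.0969 (SE) for Cyp2j9, 0.13 ± 0.041 for Cyp2j11 and -0.17 ± 0.0454 for Cyp2j6, each called for the interaction. Cyp2j8 and Cyp2j12 had too few counts to be tested.

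Cyp2c44, a renal epoxygenase that RefSeq lists as Cyp2c23, moved opposite to Cyp2j5. It had 27.4, 28.9 and 27.3 CPM in GN_captopril, 49.9, 53 and 47.9 CPM in GN_water, 88, 84.9 and 71.5 CPM in Control_captopril, and 35.5, 40.4 and 39.3 CPM in Control_water. Every library of GN_captopril and Control_water was below every library of GN_water and Control_captopril, and on each side the GN libraries were below the control libraries. The side difference was -0.97 ± 0.0574 (log2, SE) (edgeR adjusted p = 1.71e-08). Cyp2c68, of the same subfamily and with 43.3% of its windows shared with other genes, had 1.05, 1.07 and 0.827 CPM in GN_captopril, 2.38, 3.21 and 2.23 CPM in GN_water, 2.62, 1.72 and 1.44 CPM in Control_captopril, and 0.963, 1.35 and 1.15 CPM in Control_water, and its sides did not overlap either (side difference -1.05 ± 0.189 (log2, SE), edgeR adjusted p = 0.00046).

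**Figure D2:**
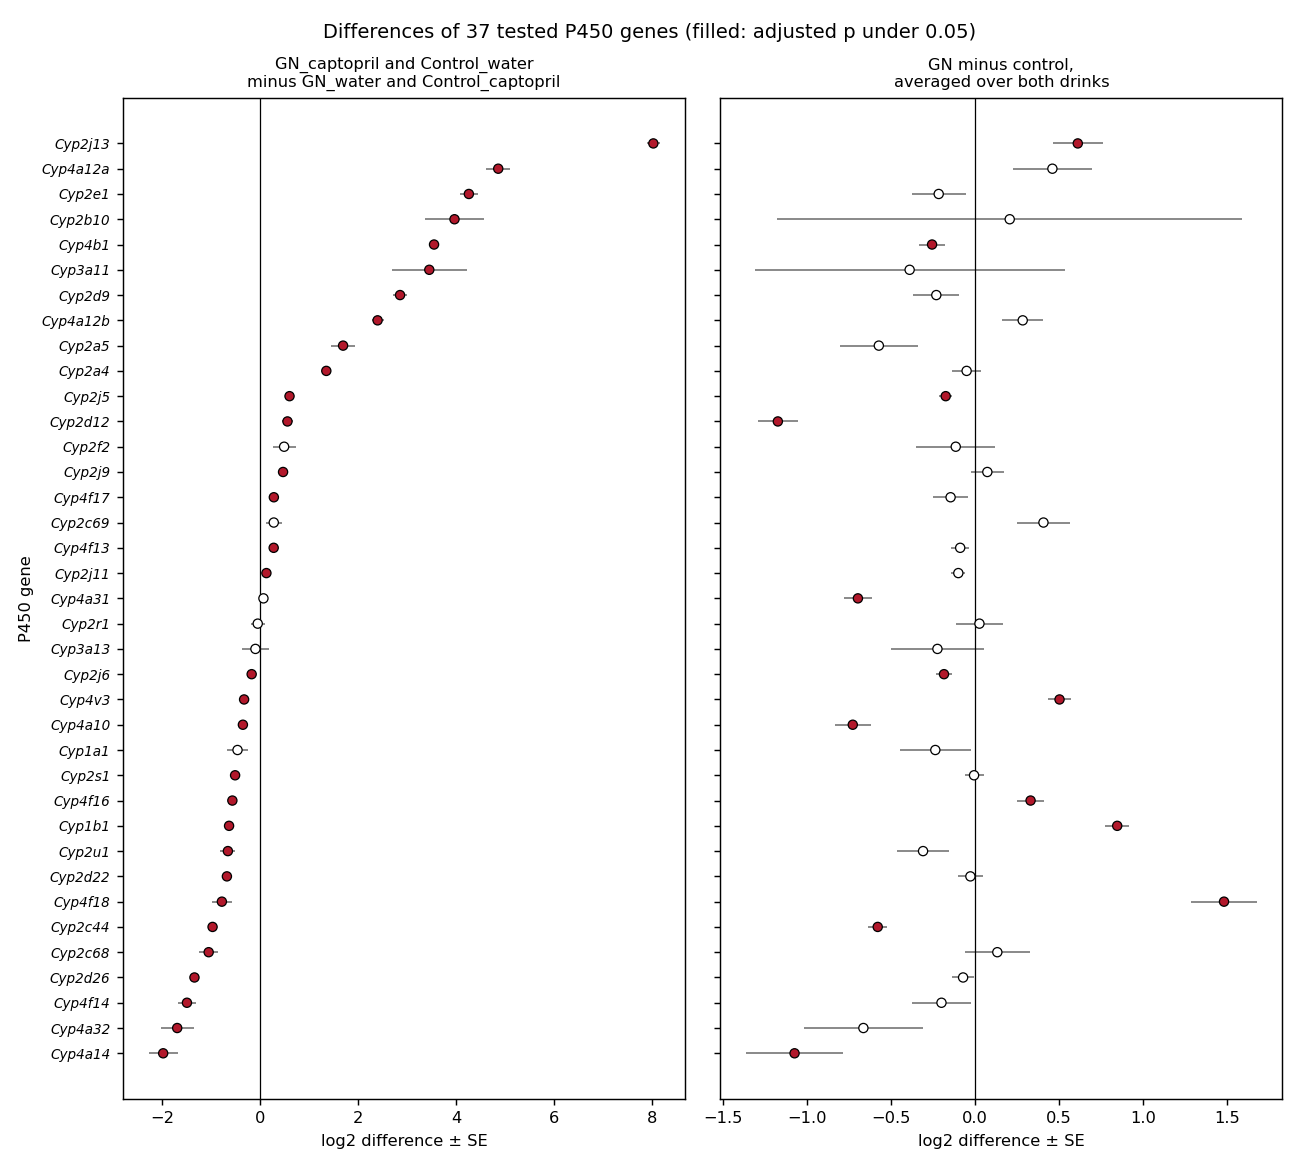
Log2 differences with their SE for 37 tested P450 genes, sorted by the side difference (left: GN_captopril and Control_water minus GN_water and Control_captopril) and with the GN average on the right, where filled points passed an adjusted p under 0.05. Cyp2c29 and Cyp2c50 are left out because they had no count in any Control_captopril library. Cyp2j13 stands at 8.02 on the left, while the highest GN average is 1.48, for Cyp4f18.

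The Cyp4a fatty acid hydroxylases, all on chromosome 4 in 1 cluster of 12 members (115106323 to 115647721) with Cyp4b1, split in opposite ways. Cyp4a12a, the androgen-induced 20-HETE synthase of mice, had 256, 313 and 254 CPM in GN_captopril, 7.37, 9.34 and 9.9 CPM in GN_water, 7.63, 8.33 and 4.57 CPM in Control_captopril, and 149, 111 and 301 CPM in Control_water. Its sides were apart at 111 to 313 CPM and 4.57 to 9.90 CPM, and Control_water held both the lowest and the second highest value of the higher side. The side difference was 4.86 ± 0.243 (log2, SE), 29.0-fold (edgeR adjusted p = 3.23e-09). Cyp4a12b, its near-identical neighbour, had 57, 53 and 54.8 CPM in GN_captopril, 11.9, 11.2 and 11.6 CPM in GN_water, 7.62, 8.48 and 9.59 CPM in Control_captopril, and 66.7, 36.3 and 46.7 CPM in Control_water. It followed the same order with a side difference of 2.40 ± 0.123 (log2, SE), 5.27-fold (edgeR adjusted p = 4.28e-09). Because the pair share 48.9% and 49.4% of their windows, their counts were also summed, which left an interaction of 7.95 ± 0.348 (log2, SE).

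Cyp4a14, a PPAR-alpha target, ran the other way. It had 136, 155 and 169 CPM in GN_captopril, 505, 526 and 492 CPM in GN_water, 1759, 956 and 1100 CPM in Control_captopril, and 533, 125 and 154 CPM in Control_water. Control_captopril was highest in every library and GN_captopril stood with 2 of the Control_water libraries at the low end. The remaining Control_water library, replicate 1, had 3.81 times the mean of the other 2 and stood just above the GN_water libraries. The side difference was -1.98 ± 0.297 (log2, SE), 3.93-fold lower in GN_captopril and Control_water (edgeR adjusted p = 0.000104). Without that Control_water library the interaction was -4.91, against -3.95 ± 0.595 with it (log2). Cyp4a10, also driven by PPAR-alpha, had 431, 573 and 487 CPM in GN_captopril, 501, 527 and 474 CPM in GN_water, 1248, 977 and 925 CPM in Control_captopril, and 827, 539 and 585 CPM in Control_water. It shares 29.8% of its windows with other genes. Its interaction of -0.70 ± 0.216 (edgeR adjusted p = 0.0159) was not called once the counts of Cyp4a10, Cyp4a31 and Cyp4a32 were summed (-0.39 ± 0.19, edgeR adjusted p = 0.104). Cyp4a31 had 329.8, 396 and 318 CPM in GN_captopril, 269, 268 and 236 CPM in GN_water, 631, 471 and 513 CPM in Control_captopril, and 499, 414 and 403 CPM in Control_water. Control_captopril overlapped only with Control_water and GN_water lay below all other groups. Its side difference was 0.07 ± 0.0826 (log2, SE) (edgeR adjusted p = 0.509, not called). Cyp4a32 had at most 1.35 CPM in any library.

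In the Cyp4f and Cyp4v genes, fatty acid and leukotriene hydroxylases, the members did not move together. Cyp4f14, a leukotriene B4 hydroxylase, had 2.52, 3.07 and 2.24 CPM in GN_captopril, 10.1, 6.21 and 7.71 CPM in GN_water, 7.36, 8.7 and 9.46 CPM in Control_captopril, and 3.32, 4.43 and 2 CPM in Control_water. The sides did not overlap, with a side difference of -1.49 ± 0.175 (log2, SE), 2.81-fold lower in GN_captopril and Control_water (edgeR adjusted p = 1.14e-05). Cyp4f18, the leukotriene B4 hydroxylase of mouse neutrophils, had 1.99, 2.58 and 1.79 CPM in GN_captopril, 3.3, 5.55 and 3.61 CPM in GN_water, 1.03, 1.15 and 1.77 CPM in Control_captopril, and 0.791, 0.91 and 0.902 CPM in Control_water. GN_water was above all other libraries, and GN_captopril was above both control groups. Cyp4f16 had 8.54, 8.32 and 8.63 CPM in GN_captopril, 14.7, 16.3 and 13.4 CPM in GN_water, 8.74, 9.91 and 11.4 CPM in Control_captopril, and 8.36, 7.92 and 7.56 CPM in Control_water, so that GN_water alone stood above the rest. Cyp4v3, the mouse counterpart of the human retinal-disease gene CYP4V2, had 9.1, 8.89 and 10.3 CPM in GN_captopril, 12.4, 12.8 and 11.9 CPM in GN_water, 8.08, 8.89 and 7.94 CPM in Control_captopril, and 7.22, 6.43 and 7.22 CPM in Control_water. GN_water was above all control libraries, and GN_captopril replicate 2 was level with the highest of them. Of the remaining tested Cyp4f genes, Cyp4f13 and Cyp4f17 were higher in GN_captopril and Control_water, with side differences of 0.28 ± 0.0531 and 0.28 ± 0.107 (SE).

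Of the 9 Cyp2d genes, which lie within 424 kb of chromosome 15 (82370527 to 82794452), 4 were tested, and they fell on different sides of the split. Cyp2d9, a testosterone hydroxylase known as male-specific in mouse liver, had 229, 313 and 233 CPM in GN_captopril, 32.1, 36.3 and 37.6 CPM in GN_water, 46.7, 50.2 and 28.6 CPM in Control_captopril, and 236, 312 and 353 CPM in Control_water. The sides were apart, with a side difference of 2.85 ± 0.143 (log2, SE), 7.24-fold (edgeR adjusted p = 3.24e-09), while 21.8% of its windows are shared with other genes. Cyp2d26 had 189, 145 and 149 CPM in GN_captopril, 465, 477 and 437 CPM in GN_water, 411, 464 and 407 CPM in Control_captopril, and 201, 195 and 178 CPM in Control_water. It ran opposite to Cyp2d9, with the sides apart, and was 2.53-fold lower in GN_captopril and Control_water (side difference -1.34 ± 0.0668 (log2, SE), edgeR adjusted p = 3.17e-09). Cyp2d22, often set beside human CYP2D6, had 24.2, 27.2 and 27 CPM in GN_captopril, 36.2, 34.4 and 28.7 CPM in GN_water, 46.5, 40.8 and 40.3 CPM in Control_captopril, and 23.8, 19.3 and 20.1 CPM in Control_water. Its sides did not overlap (side difference -0.68 ± 0.0722 (log2, SE), edgeR adjusted p = 4.87e-06), and Control_captopril was the highest group. Cyp2d12 had 141, 88.8 and 105 CPM in GN_captopril, 54.4, 63.7 and 48.5 CPM in GN_water, 184, 159 and 168 CPM in Control_captopril, and 204, 209.7 and 141 CPM in Control_water. GN_water lay below every other library, and the 2 control groups overlapped each other (side difference 0.56 ± 0.12 (log2, SE), edgeR adjusted p = 0.00164).

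The Cyp2a hydroxylases were higher in GN_captopril and Control_water. Cyp2a4, a steroid hydroxylase, had 709, 817 and 805 CPM in GN_captopril, 323, 247 and 349 CPM in GN_water, 337, 301 and 307 CPM in Control_captopril, and 690.2, 809.7 and 926 CPM in Control_water, with the sides apart. Cyp2a5, a coumarin hydroxylase, had 141, 211 and 194 CPM in GN_captopril, 39.6, 33.1 and 29.6 CPM in GN_water, 106, 73.5 and 71.2 CPM in Control_captopril, and 89.1, 123 and 282 CPM in Control_water, and here Control_water replicate 1 lay below the highest Control_captopril library, so that the sides overlapped. Side differences were 1.35 ± 0.0877 (log2, SE) for Cyp2a4 (edgeR adjusted p = 4.24e-08) and 1.69 ± 0.238 (log2, SE) for Cyp2a5 (edgeR adjusted p = 5.71e-05). Cyp2a4 shares 36.1% of its windows with Cyp2a5, and Cyp2a5 shares 28.1% with Cyp2a4. With their counts summed the interaction was 2.78 ± 0.211 (log2, SE).

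In family 1, Cyp1b1 was higher in both GN groups than in both control groups, and Cyp1a1 was low throughout. Cyp1b1, a target of the aryl hydrocarbon receptor that is active in mesenchymal and vessel cells, had 55.1, 57.5 and 55.1 CPM in GN_captopril, 79.3, 88.6 and 83.9 CPM in GN_water, 40.5, 51 and 53.1 CPM in Control_captopril, and 30.2, 26.5 and 33.6 CPM in Control_water. GN_water was highest, and the GN_captopril libraries were above all Control_water and all Control_captopril libraries. Cyp1a1, the classic target of the same receptor, had 1.4, 0.549 and 1.29 CPM in GN_captopril, 1.74, 1.32 and 1.98 CPM in GN_water, 1.35, 1.98 and 1.82 CPM in Control_captopril, and 1.3, 1.46 and 1.55 CPM in Control_water, with all groups overlapping. Cyp2s1, a P450 of epithelia, had 15.6, 18.5 and 16.1 CPM in GN_captopril, 21.9, 24.3 and 21.6 CPM in GN_water, 23.6, 24.1 and 24.1 CPM in Control_captopril, and 15.6, 15.1 and 17.1 CPM in Control_water. Its sides did not overlap and the GN average was -0.01 ± 0.0567 (edgeR adjusted p = 0.959, interaction 7.08e-06). Cyp2u1, a long-chain fatty acid hydroxylase, had 1.93, 1.98 and 2.08 CPM in GN_captopril, 3.39, 2.84 and 3.66 CPM in GN_water, 4.08, 4.74 and 2.83 CPM in Control_captopril, and 3.17, 2.06 and 2.45 CPM in Control_water, lower on the side of GN_captopril and Control_water (side difference -0.66 ± 0.154 (log2, SE), edgeR adjusted p = 0.00304) with overlap. Cyp2r1, a vitamin D hydroxylase best known from liver, had 1.33, 1.1 and 1.65 CPM in GN_captopril, 1.92, 1.73 and 1.63 CPM in GN_water, 1.3, 1.38 and 1.42 CPM in Control_captopril, and 1.54, 1.76 and 1.74 CPM in Control_water. Cyp3a13, of the drug-metabolising Cyp3a subfamily, had 0.531, 0.329 and 0.646 CPM in GN_captopril, 0.596, 0.534 and 0.445 CPM in GN_water, 0.314, 0.783 and 0.759 CPM in Control_captopril, and 0.652, 0.607 and 0.451 CPM in Control_water. Neither was called in the GN average, the captopril average or the interaction.

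In GN averaged over drinks, Cyp4f18, Cyp1b1, Cyp2j13, Cyp4v3 and Cyp4f16 rose, and Cyp2d12, Cyp4a14, Cyp4a10, Cyp4a31, Cyp2c44, Cyp4b1, Cyp2j6 and Cyp2j5 fell. Log2 fold changes of those that rose were 1.48 ± 0.196 for Cyp4f18 (edgeR adjusted p = 9.83e-05), 0.85 ± 0.0703 for Cyp1b1 (2.55e-06), 0.61 ± 0.15 for Cyp2j13 (0.00768), 0.50 ± 0.0683 for Cyp4v3 (0.000119) and 0.33 ± 0.079 for Cyp4f16 (0.00656). For those that fell they were -1.17 ± 0.121 for Cyp2d12 (edgeR adjusted p = 1.32e-05), -1.07 ± 0.29 for Cyp4a14 (0.0133), -0.73 ± 0.108 for Cyp4a10 (0.000249), -0.70 ± 0.0829 for Cyp4a31 (4.13e-05) and -0.58 ± 0.0572 for Cyp2c44 (9.96e-06). Falls were smaller in Cyp4b1 (-0.26 ± 0.0777, edgeR adjusted p = 0.0239), Cyp2j6 (-0.18 ± 0.0454, 0.00793) and Cyp2j5 (-0.17 ± 0.0376, 0.00356). For Cyp2j13 the group means were 2.50 CPM in GN_water and 1.27 CPM in Control_captopril, beside 507 CPM in GN_captopril and 426 CPM in Control_water. Means of Cyp4b1 were 355, 488, 4783 and 4953 CPM in the same order, and those of Cyp2j5 1235, 1483, 1994 and 2114 CPM. None of these 3 was called in GN_captopril against Control_water. Over the 39 tested members the median log2 fold change was -0.10, beside -0.01 over all genes. With limma on the authors' RPKM the calls of Cyp4a14, Cyp4b1 and Cyp2j5 were lost (adjusted p = 0.167, 0.214 and 0.0559 with a pseudocount of 0.1), and those of Cyp4b1 and Cyp2j5 also with library totals alone (edgeR adjusted p = 0.0921 and 0.0561). The Cyp4b1 call was further lost without the 2 adrenal-rich libraries (edgeR adjusted p = 0.102) and without GN_captopril replicate 3 (0.0546), Control_captopril replicate 2 (0.0536) or 3 (0.0511), or Control_water replicate 3 (0.057).

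Markers of other cells moved with these GN differences. Macrophage markers summed to 470 to 922 CPM in GN_captopril, 944 to 1340 CPM in GN_water, 123 to 176 CPM in Control_captopril and 150 to 158 CPM in Control_water, and 6 of 6 rose in the GN average. Of 6 neutrophil markers 3 were tested and all 3 rose. Proximal tubule markers summed to 21600 to 24380 CPM in GN_captopril, 17800 to 19660 CPM in GN_water, 22620 to 23670 CPM in Control_captopril and 24560 to 26180 CPM in Control_water, with 1 of 11 higher and 6 lower. Of all genes 16.3% were higher and 14.6% lower in the GN average. The part of these markers in the P450 differences was not tested.

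In the comparisons of libraries with like sex-linked transcripts, GN_water against Control_captopril called 16 members, 5 higher and 11 lower, beside 16.9% higher and 13.2% lower of all genes. GN_captopril against Control_water called 5 members, 3 higher and 2 lower, beside 7.05% higher and 5.02% lower of all genes. These were 41% and 12.8% of the 39 tested members, beside 30.1% and 12.1% of all genes called in either direction. In GN_captopril against Control_water the share of members called was thus near the background. Cyp1b1, Cyp4f18 and Cyp4v3 were higher and Cyp2c44 and Cyp2d12 lower in both comparisons. Cyp1b1 had log2 fold changes of 0.80 ± 0.0967 in GN_water against Control_captopril and 0.89 ± 0.102 in GN_captopril against Control_water (edgeR adjusted p = 5.48e-05 and 0.000295). For Cyp4f18 they were 1.67 ± 0.254 and 1.30 ± 0.299 (edgeR adjusted p = 0.000313 and 0.0145), and for Cyp2c44 -0.70 ± 0.0777 and -0.46 ± 0.0841 (edgeR adjusted p = 3.00e-05 and 0.00421). Falls of 3 Cyp4a genes were called in GN_water against Control_captopril, at -1.07 ± 0.154 for Cyp4a10, -1.33 ± 0.409 for Cyp4a14 and -1.06 ± 0.118 for Cyp4a31 (edgeR adjusted p = 0.000203, 0.0264 and 2.95e-05). In GN_captopril against Control_water they were -0.39 ± 0.153, -0.82 ± 0.413 and -0.33 ± 0.117 and not called (edgeR adjusted p = 0.119, 0.218 and 0.0808). The difference between the 2 comparisons is tested by the captopril average, where Cyp4a31 was called and Cyp4a10 and Cyp4a14 were not (edgeR adjusted p = 0.0219, 0.0778 and 0.641). Without Control_captopril replicate 1, the fall of Cyp4a14 in GN_water was -1.02 (edgeR adjusted p = 0.113), and it also lost its call without any 1 of the GN_water libraries. The Cyp2d12 call in GN_captopril against Control_water was lost without any 1 of 4 libraries, with edgeR adjusted p values of 0.0508 to 0.0612, and in the fit of those 2 groups alone (0.0537). In the same comparison, Cyp4f18 lost its call without GN_captopril replicate 2 or Control_water replicate 1, and Cyp4v3 without GN_captopril replicate 3 or Control_water replicate 2, at edgeR adjusted p values of 0.0577, 0.0508, 0.0616 and 0.0611. Cyp2a5 was lower in GN_water than in Control_captopril (-1.30 ± 0.341, edgeR adjusted p = 0.0116), a call that ended without Control_captopril replicate 1 (0.0523) and with the counts of Cyp2a4 added (0.263).

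**Figure D3:**
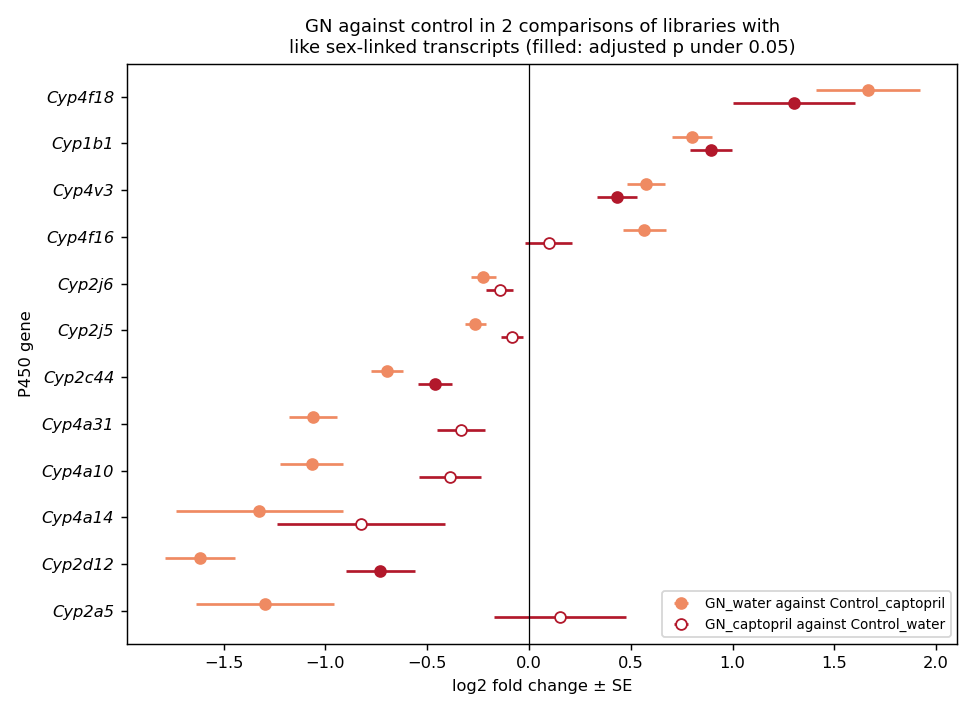
Log2 fold changes with their SE of 12 P450 genes in GN_water against Control_captopril and GN_captopril against Control_water, with filled points for an adjusted p under 0.05. The points of Cyp1b1 lie close together at 0.80 and 0.89, while those of Cyp4a10, Cyp4a14 and Cyp4a31 lie further from 0 in GN_water against Control_captopril.

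By the labels as given, 3 members were higher with captopril averaged over disease: Cyp2d12 (0.44 ± 0.12, edgeR adjusted p = 0.0452), Cyp4a31 (0.36 ± 0.0827, edgeR adjusted p = 0.0219) and Cyp2d22 (0.33 ± 0.0722, edgeR adjusted p = 0.0173). The share of members called, 7.69%, was near the 6.51% of all genes. With limma on RPKM all 3 calls were lost, at adjusted p values of 0.155, 0.0937 and 0.0676. Without Control_water replicate 1 the count of members called was 6, with Cyp4a10 and Cyp4a14 among them (edgeR adjusted p = 0.0112 and 0.00943). Without Control_water replicate 2 it was 1.

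Most of the other PPAR-alpha targets, 18 tested genes outside the P450 family that mainly serve fatty acid oxidation, fell in GN, as did Cyp4a10, Cyp4a14 and Cyp4a31. In the GN average 13 were lower and none higher, beside 14.6% lower and 16.3% higher of all genes, led by Vnn1 (-0.72 ± 0.0679, edgeR adjusted p = 6.48e-06), Acot2 (-0.50 ± 0.0586, 3.85e-05) and Acaa1b (-0.68 ± 0.0844, 6.14e-05). The median log2 fold change of the 18 was -0.33. GN_water against Control_captopril gave 15 lower and none higher, GN_captopril against Control_water 3 lower and none higher, and the captopril average 11 higher and none lower. Of all genes 13.2% were lower in GN_water against Control_captopril, 5.02% lower in GN_captopril against Control_water and 3.17% higher in the captopril average. Ppara itself had a GN average of -0.30 ± 0.0765 (edgeR adjusted p = 0.00916) and a captopril average of 0.39 ± 0.0766 (edgeR adjusted p = 0.011). In the Control_water library with high Cyp4a14, Pdk4 was 2.03-fold the mean of the other 2 libraries of that group. Of the 18 tested PPAR-alpha targets 16 lay above that mean, with a median ratio of 1.10. Their ratios ran from 0.662 for Creb3l3 to 2.03 for Pdk4. Of the 39 tested members 22 lay above that mean, with a median ratio of 1.02. The share over all genes was not computed.

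**Figure D4:**
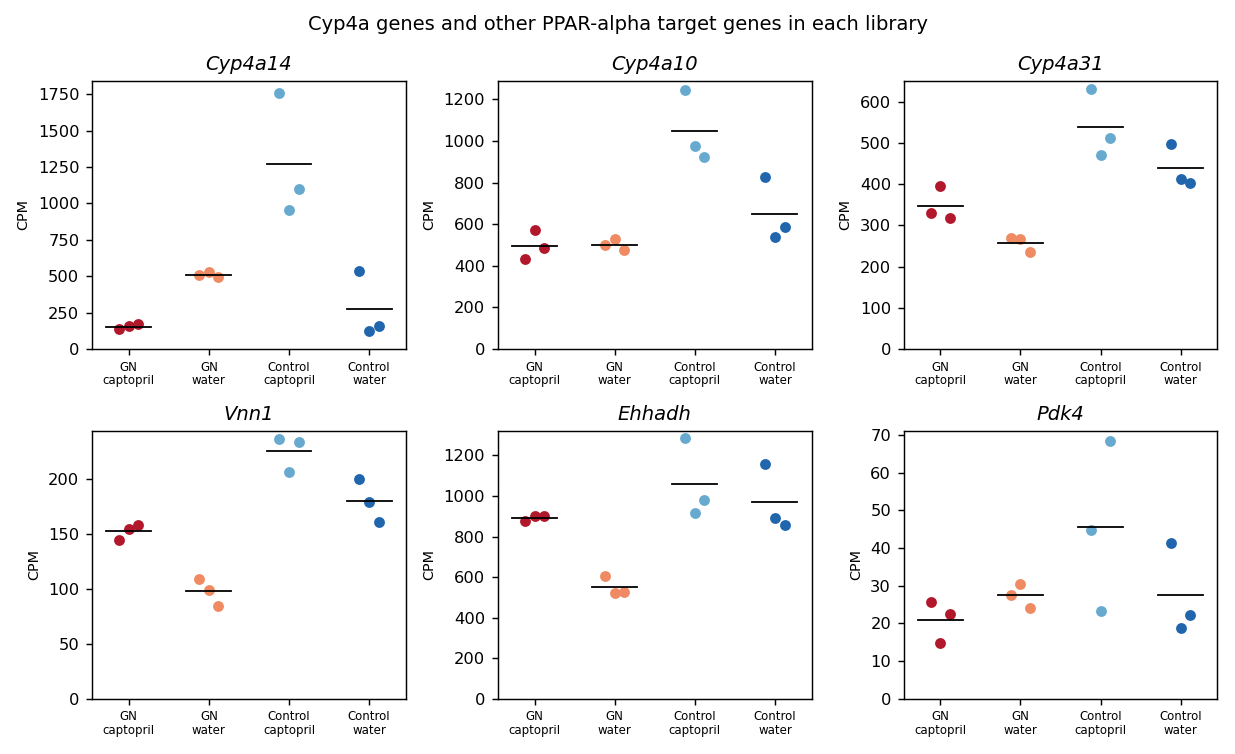
Levels in CPM of 3 Cyp4a genes and 3 other PPAR-alpha targets, with 1 point per library and a bar at the mean of each group. Control_captopril holds the highest library in each panel, and Control_water replicate 1 is the highest of its group in each.

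The genes around the P450 enzymes differed on both sides. Of 8 electron donor genes the interaction was called higher in 5 and lower in 1, or 75%, beside 50.7% of all genes. Cytochrome b5 (Cyb5a) had an interaction of 2.25 ± 0.107, Cyb5b one of 1.07 ± 0.074 and Cyb5r3 one of 1.30 ± 0.103 (edgeR adjusted p = 2.08e-09, 7.64e-08 and 3.09e-07). P450 oxidoreductase (Por) had 446, 438 and 440.3 CPM in GN_captopril, 302, 293 and 279.8 CPM in GN_water, 376, 337 and 347 CPM in Control_captopril, and 427, 373 and 415 CPM in Control_water. In the GN average 1 electron donor of 8 was called, Pgrmc1 (-0.25 ± 0.0334, edgeR adjusted p = 9.73e-05). Of 12 heme synthesis and breakdown genes 6 were called higher for the interaction and none lower, likewise 50% beside 50.7% of all genes called in either direction, and in the GN average 2 were lower, Fech (-0.28 ± 0.0362) and Cpox (-0.39 ± 0.0702).

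Enzymes that act on P450 products or compete for arachidonic acid moved apart from one another. Of 17 tested epoxide hydrolase and eicosanoid genes the interaction was higher in 2 and lower in 10, or 70.6%, beside 50.7% of all genes. Ephx2, the soluble hydrolase that removes P450 epoxides, had 658, 731 and 647 CPM in GN_captopril, 227, 221 and 191 CPM in GN_water, 266, 265 and 260.0 CPM in Control_captopril, and 715, 649.5 and 699 CPM in Control_water, and its interaction was 3.05 ± 0.101 (edgeR adjusted p = 5.68e-11). Hpgd and Ptgs1 had interactions of -2.12 ± 0.145 and -1.26 ± 0.0914 (edgeR adjusted p = 7.32e-08 and 1.28e-07). The GN average was higher in 7 and lower in 2, beside 16.3% higher and 14.6% lower of all genes. It was led by Alox5ap, a leukotriene synthesis protein of myeloid cells (1.51 ± 0.157, edgeR adjusted p = 1.40e-05), and Ptgs2 (1.61 ± 0.228, 0.000163). The macrophage markers given above rose in the same contrast, and their part was not tested.

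Of 20 tested receptors and regulators of P450 genes the interaction was higher in 8 and lower in 2, or 50% called, near the 50.7% of all genes, with Esr1 (2.26 ± 0.229), Rxra (0.79 ± 0.0816) and Bcl6 (3.28 ± 0.389) at the smallest p values. All 5 androgen-induced kidney genes were higher for the interaction, beside 23.6% of all genes. Kap, the best known of them, had 27150, 27730 and 29780 CPM in GN_captopril, 8917, 6619 and 5206 CPM in GN_water, 9263, 7433 and 9909 CPM in Control_captopril, and 25950, 33890 and 32960 CPM in Control_water. Of 4 tested targets of the aryl hydrocarbon receptor outside the P450 family, 2 were lower in the GN average, Ugt1a6a (-0.39 ± 0.0791) and Tiparp (-0.29 ± 0.0657), while Cyp1b1 rose.

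A further set of members with low counts is best known from liver and was named after their values were seen: Cyp1a2, Cyp2a12, Cyp2c29, Cyp2c37, Cyp2c50, Cyp2c54, Cyp2c70, Cyp3a11 and Cyp3a25. Their counts summed to 5, 100 and 41 in GN_captopril, 0, 34 and 4 in GN_water, 3, 3 and 9 in Control_captopril and 163, 330 and 44 in Control_water. Control_water replicate 2 was highest, and GN_captopril replicate 2 and GN_water replicate 2 were the highest of their groups. Cyp3a11, the most abundant of them, had 0.0664, 2.96 and 1.29 CPM in GN_captopril, 0, 0.781 and 0.198 CPM in GN_water, 0.135, 0.0921 and 0.303 CPM in Control_captopril, and 4.24, 9.59 and 1.1 CPM in Control_water, and its interaction of 6.90 ± 1.54 (edgeR adjusted p = 0.00218) was not called with limma on RPKM and a pseudocount of 0.1 (adjusted p = 0.0555). Liver markers summed to 60.1 to 109 CPM in GN_captopril, 75.0 to 95.1 CPM in GN_water, 80.4 to 98.0 CPM in Control_captopril and 65.0 to 195 CPM in Control_water, with 195 CPM in Control_water replicate 2. Albumin (Alb) had 7.71, 59 and 25.2 CPM in GN_captopril, 11.4, 25.4 and 11.7 CPM in GN_water, 25.8, 25.9 and 23 CPM in Control_captopril, and 24.9, 103 and 21.7 CPM in Control_water. Of the liver markers, Alb, Apoa2, Ahsg, Cps1 and Tat were highest in Control_water replicate 2, Cps1 and Tat at 4.92 and 2.67 CPM. The others were not: Apoc3 and Fga were highest in Control_captopril replicate 1 (12.6 and 45.6 CPM), and Fgb in GN_water replicate 2 (11.7 CPM). Cps1 and Tat were at 0 or below 1 CPM in all libraries of GN_water and Control_captopril. Cps1 had 0.133, 1.65 and 0.861 CPM in GN_captopril, and 1.26 and 0.322 CPM in Control_water replicates 1 and 3. Tat was below 1 CPM in all of these libraries too. Of 7 tested liver markers 2 were called higher for the interaction, Ahsg (8.22 ± 2.06) and Cps1 (10.6 ± 2.48). The other 2 called were lower, Fgb (-2.52 ± 0.537) and Apoc3 (-0.95 ± 0.241). Fgb had means of 3.24 CPM in GN_captopril, 10.6 CPM in GN_water, 8.69 CPM in Control_captopril and 4.93 CPM in Control_water. Without Control_water replicate 2 the interaction of Cyp3a11 was 6.04 (edgeR adjusted p = 0.00556). Cyp3a11 passed the count filter only through the side where it was higher, so its call was partly fixed by that filter. The part of liver transcripts in the values of these members was not tested.

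**Figure D5:**
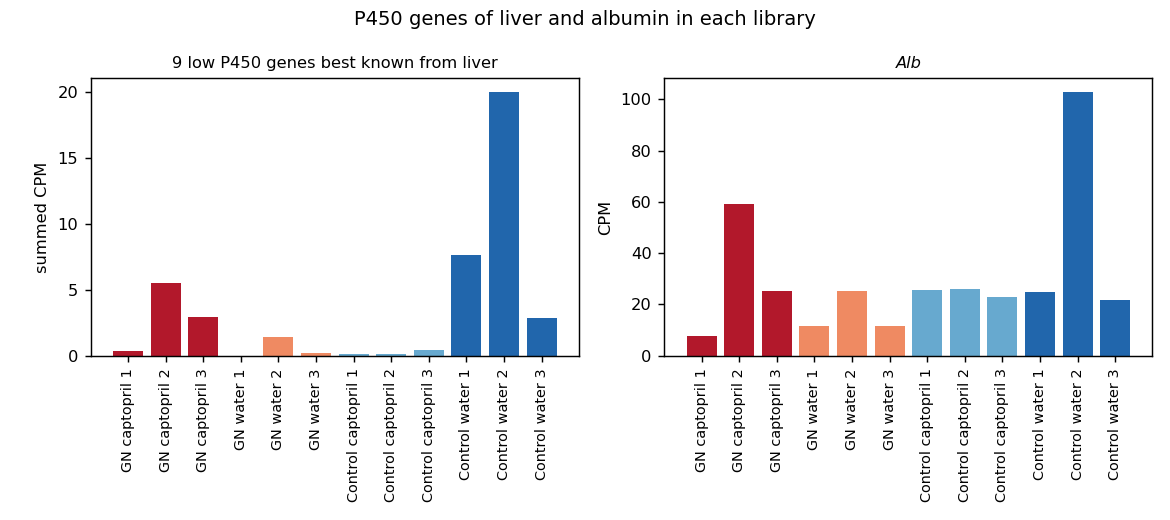
Summed CPM of 9 P450 genes best known from liver (left) and CPM of Alb (right) as bars that start at 0, 1 per library, with GN groups left of the controls. Control_water replicate 2 stands highest in both panels and GN_captopril replicate 2 is the highest GN library in the Alb panel.

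Of the 43 members not tested, 7 had no count in any library (Cyp2g1, Cyp2t4, Cyp2w1, Cyp3a16, Cyp3a44, Cyp4f40 and Cyp4x1os), 13 including these never reached 1 count, 23 reached 1 but not 10 counts and 7 reached 10 or more. By their highest count in a library these 7 were Cyp1a2 (34.0), Cyp2d10 (20.4), Cyp2c54 (17.0), Cyp2c70 (17.0), Cyp3a25 (16.6), Cyp2a12 (13.0) and Cyp4f15 (13.0). Cyp4f15, singled out after its values were seen, had 7, 10 and 7 counts in GN_captopril, 1, 1 and 0 in GN_water, 1, 1 and 2 in Control_captopril and 7, 7 and 13 in Control_water. Counts this low are too shallow to compare between groups. For a member with no count, up to 3 counts per library cannot be told from none, and these limits cover counting error only. The members left out of the test are given as counts only, with no test between groups.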

How the data were processed

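RNA was measured by stranded mRNA sequencing in 12 kidney cortex libraries, 3 per group, grouped by the labels alone. The authors deposited expected counts, estimated read counts per gene symbol before scaling, and RPKM values, which they made by dividing by gene length and depth. Per the submitters' processing notes Bowtie2, Partek and mm10 were used; annotation, filters and versions: not given in the sources used here. Of the deposited count entries 89.2% were whole (within 0.001), and all were rounded for testing. The RPKM values served only for comparisons of 1 gene between libraries.

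Libraries held between 14.2 M and 22.8 M counts (M for mega). Genes were kept with filterByExpr (minimum count 10, minimum total 15), which left 14618. After TMM scaling, a quasi-likelihood model with a mean for each group was fitted in edgeR 4.0.16 (R 4.3.3). The Benjamini-Hochberg adjustment ran over the 14618 genes, with a threshold of 0.05. SEs came from the estimate and F statistic, and the pipeline was tested on simulated data. DESeq2 1.42.0 and limma 3.58.1 on log2(RPKM + 0.1) or log2(RPKM + 0.01) were alternatives, beside other scalings and filters, left-out libraries and a replicate block.

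Positions and promoters came from RefSeq (GRCm38.p6), exon lengths and shared 50-base windows from a GENCODE annotation of the same assembly, which need not be the authors'. Cyp2c44 was found under its RefSeq name. Members, gene lists and comparisons were chosen with earlier results of these data known. Named members were a fixed set of 21, plus up to 6 higher and 6 lower by size in the GN average, the captopril average and the interaction, with a mean of at least 1 CPM. Members named outside this rule were chosen after their values were seen.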

Additional observations from a re-analysis of the deposited data

Results flagged for a closer look

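The interaction was called for 33 of the 39 tested members and for 50.7% of all genes. For Cyp2b10, Cyp2c29, Cyp2c50, Cyp3a11 and Cyp4a32 the call was partly fixed by the count filter, which they passed only through their higher side. Part of the named set was chosen by the size of the interaction, so the next count is partly fixed by that choice. For 24 of the named members the captopril difference in GN departed from that in controls by the interaction test of edgeR. It was higher in 11, at log2 values of 16.0 for Cyp2j13, 9.71 for Cyp4a12a, 8.52 for Cyp2e1, 7.10 for Cyp4b1, 6.90 for Cyp3a11, 5.71 for Cyp2d9, 4.79 for Cyp4a12b, 3.39 for Cyp2a5, 2.70 for Cyp2a4, 1.20 for Cyp2j5 and 1.12 for Cyp2d12. It was lower in 13, at -3.95 for Cyp4a14, -2.98 for Cyp4f14, -2.68 for Cyp2d26, -2.10 for Cyp2c68, -1.94 for Cyp2c44, -1.56 for Cyp4f18, -1.35 for Cyp2d22, -1.31 for Cyp2u1, -1.26 for Cyp1b1, -1.13 for Cyp4f16, -1.02 for Cyp2s1, -0.70 for Cyp4a10 and -0.65 for Cyp4v3. The interaction is the same split of libraries as that by sex-linked and renin transcripts and cannot be told apart from it.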

How the results depend on the processing

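No log2 fold change of a named member changed sign in an alternative run where either that run or the main run called it. Changes of sign in values called in neither run were counted as the same. Counts of members called stayed within 1.5 times for 6 of the 9 comparisons. Captopril averaged over disease, with 3 calls, gave 0 with limma on log2(RPKM + 0.1) and 0 with log2(RPKM + 0.01), and 1 to 6 when 1 library was left out, with 6 without Control_water replicate 1 and 1 without Control_water replicate 2. GN_water against Control_captopril, with 16, gave 9 with limma on log2(RPKM + 0.1) and 10 with log2(RPKM + 0.01). GN_captopril against Control_water, with 5, gave 3 with limma on log2(RPKM + 0.1), 3 without the 2 adrenal-rich libraries, 3 with only the 2 groups fitted, and 3 to 7 when 1 library was left out, with 3 without GN_captopril replicate 3 or Control_water replicate 2. The cause of these changes was not tested. With the replicate block the GN average gave 13 calls, the interaction 33, the captopril average 3 and GN_captopril against Control_water 6. Libraries of the same number deviated together (r over 0.1) in 4 of 18 pairs, from -0.235 to 0.236, so the numbers were not read as a pairing. Over single members and comparisons, 5057 values stayed called or stayed not called, 141 lost their call and 61 gained one. Members under about 10 counts in a library were too shallow to compare.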
